A study of Homo sapiens with 33 samples.

Results

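The AP-2 transcription factors are encoded by TFAP2A, TFAP2B, TFAP2C, TFAP2D and TFAP2E, and these 5 genes were taken by symbol from the 56470 gene symbols of the deposited count table. The table holds RNA-seq of 3 head and neck squamous cell carcinoma (HNSCC) cell lines, SCC1, SCC6 and SCC25, treated for up to 5 days with 100 nM cetuximab, an antibody that blocks the epidermal growth factor receptor, or with PBS as the untreated control. Each line was sampled once a day, the PBS arm from day 0 to day 5 and the cetuximab arm from day 1 to day 5, which gives 33 libraries. For cetuximab-treated SCC6, 2 libraries carry day 2 and none carries day 1, and they are called 2a and 2b here. The sources differ on the medium: the labels give hydrocortisone, at different concentrations, for SCC1 (UM-SCC-1) and SCC25 and high glucose with non-essential amino acids for SCC6 (UM-SCC-6), while the study's methods give a single medium for all lines. If the labels hold, a difference between lines cannot be told apart from a difference between media. The study followed TFAP2A as a regulator of growth factor receptors, and the comparisons below ask how the whole family behaved.

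AP-2 proteins bind GC-rich DNA as homo- or heterodimers through a helix-span-helix motif, and family members can occupy the same sites. TFAP2A and TFAP2C are known as partners in the neural crest and in the epidermis, and in the epidermis they drive keratinocyte genes. Both are known to bind the promoters of ERBB family receptors. TFAP2B is known from kidney, limb and neural crest, TFAP2D from the midbrain and retina, and TFAP2E from the olfactory bulb.

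On GRCh37, with GENCODE annotation, TFAP2A lies on the minus strand of chromosome 6 from 10393419 to 10419892. TFAP2D (50681239 to 50740746) and TFAP2B (50786436 to 50815332) are neighbours on the plus strand of chromosome 6, 45690 bases apart. TFAP2C lies on the plus strand of chromosome 20 from 55204362 to 55214339. TFAP2E lies on the plus strand of chromosome 1 from 36038915 to 36060929, between NCDN, 6040 bases below, and PSMB2, 4213 bases above. The main transcripts have 7 exons, except that of TFAP2D with 8. The 250 bases before the start of the main transcript are shown for TFAP2A and TFAP2E, which had measurable RNA, and for TFAP2B, which had almost none, since these start regions differ in base composition. Capitals mark CG dinucleotides, and each sequence reads 5′ to 3′ on the strand of its gene, at chr6:10415308-10415557 (minus) for TFAP2A, chr1:36038665-36038914 (plus) for TFAP2E and chr6:50786334-50786583 (plus) for TFAP2B.
TFAP2A: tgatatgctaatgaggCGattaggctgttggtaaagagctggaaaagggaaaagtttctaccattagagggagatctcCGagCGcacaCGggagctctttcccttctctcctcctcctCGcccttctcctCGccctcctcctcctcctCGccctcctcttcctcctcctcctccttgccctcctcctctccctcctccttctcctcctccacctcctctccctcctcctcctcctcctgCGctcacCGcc
TFAP2E: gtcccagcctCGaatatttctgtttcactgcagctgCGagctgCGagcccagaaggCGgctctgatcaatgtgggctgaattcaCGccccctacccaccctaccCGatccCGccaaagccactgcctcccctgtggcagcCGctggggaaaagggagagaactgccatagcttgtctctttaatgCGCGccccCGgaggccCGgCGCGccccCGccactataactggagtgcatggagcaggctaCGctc
TFAP2B: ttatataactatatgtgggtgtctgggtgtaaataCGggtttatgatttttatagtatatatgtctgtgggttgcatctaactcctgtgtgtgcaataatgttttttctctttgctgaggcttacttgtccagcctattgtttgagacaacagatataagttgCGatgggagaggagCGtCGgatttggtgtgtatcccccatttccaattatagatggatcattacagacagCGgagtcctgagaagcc
The TFAP2E start region held 16 CG dinucleotides and was 62.4% GC, near the median of 18454 start regions of the same length, which was 18 and 63.2%. TFAP2A held 9 at 59.2% GC, TFAP2B 5 at 40.8% and TFAP2D 3 at 39.2%. The AP-2 recognition letters GCCNNNGGC, found on either strand in 26% of all start regions, and GCCNNNNGGC, found in 23.8%, were in none of these 4 windows.

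Total counts ranged from 28508758 to 80727478 per library, with a median of 43002133, and the highest were cetuximab-treated SCC6 of days 4 and 5, the only libraries of their flow cell. All 12 squamous epithelial markers listed for the check of the lines (KRT5, KRT14, TP63 and others) were above 1 CPM (counts per 1000000 counts of a library) in SCC1 and SCC25, and 11 of 12 in SCC6. Of 10 melanocyte and neural crest markers, 2 to 3 were above 1 CPM in each group, led by MITF in SCC6 (mean 43 CPM with PBS) and NGFR (13.8) and MITF (10.1) in SCC25, and SOX10 was at 0 in every group. Of 10 fibroblast markers, 9 were above 1 CPM with PBS in SCC25, 4 in SCC1 and 1 in SCC6. Levels below are CPM scaled by TMM factors, log2 changes are cetuximab over PBS on days 1 to 5, and a gene is called changed where edgeR's quasi-likelihood test gave a Benjamini-Hochberg adjusted p under 0.05. The libraries of a group are from different days, and nothing says whether they came from separate cultures, so p-values measure only the spread between these libraries. In bulk RNA fewer cells with a transcript cannot be told apart from less transcript per cell.

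Of the 5 members, only TFAP2C was called changed with cetuximab by the test over days 1 to 5, and only in SCC1, where it rose. In SCC1 with PBS, TFAP2C stood at 8.9, 6.56, 6.38, 8.38 and 6.62 CPM on days 1 to 5. With cetuximab it stood at 15.1, 14, 15.7, 17.8 and 15.9 CPM. Every cetuximab library was above every PBS library, including PBS of day 0 at 11 CPM. The means were 7.37 ± 1.18 and 15.7 ± 1.39 CPM (SD, n = 5 each), a log2 change of 1.10 with a standard error of 0.11, or 2.14-fold (adjusted p = 1e-05, edgeR). The same-day log2 ratio was 0.76 on day 1 and between 1.09 and 1.3 on days 2 to 5. The rise was called both on days 1 to 3 (log2 1.02, adjusted p = 0.00046, edgeR), where 29.6% of all genes were called, and on days 4 and 5 (1.17, adjusted p = 0.00061), where 29.9% were. The difference of 0.15 between the periods had a standard error of 0.23 and was not called. On days 1 to 3 all PBS libraries of SCC1 were on 1 flow cell and all cetuximab libraries on another. With the flow cell as a covariate, a term set only by PBS of days 4 and 5, the change on days 1 to 3 was 1.38. Its standard error was 0.28, against 0.15 without the covariate.

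TFAP2C was 1 of 3 members tested in SCC1, where 44.8% of all genes tested were called, 22.7% as higher, and where 15.3% had all cetuximab libraries above all PBS libraries. All 5 cetuximab libraries of SCC1 shared a flow cell with PBS of day 5, and PBS of days 0 to 4 was on another. PBS of day 5 was at 6.62 CPM, among the lower PBS values, and the log2 change with the flow cell as a covariate was 1.26 (SE 0.21, adjusted p = 0.002, edgeR). Squamous epithelial markers moved in the same libraries, from a summed 6370 to 7230 CPM with PBS to 9130 to 13700 CPM with cetuximab, with 7 of 12 called higher and 4 lower. So did fibroblast markers, from 52.5 to 73.8 CPM to 96.7 to 222 CPM, with 5 of the 6 tested called higher and 1 lower. Summed fibroblast markers were also higher with cetuximab in the lines where TFAP2C was not called. They were at 181 to 231 CPM with PBS and 295 to 463 CPM with cetuximab in SCC25, and at 3.88 to 7.33 and 10.6 to 116 CPM in SCC6. The summed squamous markers of the treatments overlapped in those lines. The part of these markers in the TFAP2C result was not tested.

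**Figure D1:**
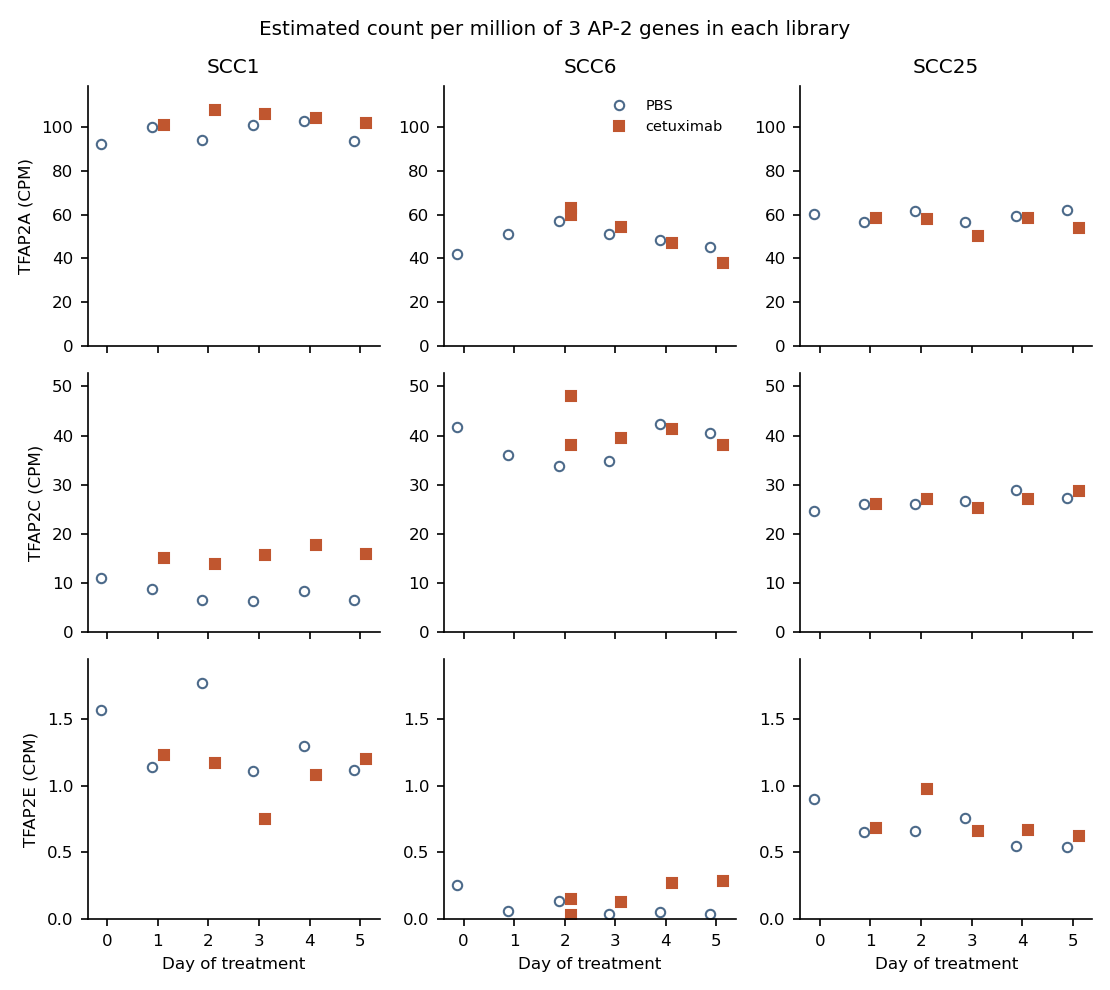
Estimated CPM (TMM-scaled) of TFAP2A, TFAP2C and TFAP2E in each of the 33 libraries, by day of treatment (points are set slightly apart by treatment); open circles are PBS, filled squares cetuximab, and each row has its own scale from 0. TFAP2C in SCC1 is the panel in which all cetuximab libraries, 14 to 17.8 CPM, sit above all PBS libraries of days 1 to 5, 6.38 to 8.9 CPM.

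In SCC6 and SCC25 TFAP2C stood at a higher level and the groups overlapped. In SCC6 it was at 36.1, 33.9, 34.9, 42.4 and 40.6 CPM with PBS on days 1 to 5. With cetuximab it was at 48 (2a), 38.1 (2b), 39.5, 41.3 and 38.1 CPM, so that one of the libraries labelled day 2 was the highest of all. The log2 change was 0.11 with a standard error of 0.10 (adjusted p = 0.45, edgeR). In SCC25, TFAP2C was at 26.1, 26.1, 26.7, 28.9 and 27.3 CPM with PBS and at 26.1, 27.2, 25.3, 27.2 and 28.8 CPM with cetuximab. The ranges lay almost on top of each other, and the log2 change was -0.01 with a standard error of 0.06 (adjusted p = 0.92, edgeR). In SCC25, PBS and cetuximab of days 1 and 2 were on the same flow cell, and cetuximab of days 3 to 5 was on another.

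The cetuximab change of TFAP2C differed between the lines by the test of the difference itself. It was lower in SCC25 than in SCC1 by a log2 difference of -1.10 (SE 0.13, adjusted p = 1.2e-06, edgeR) and lower in SCC6 than in SCC1 by -0.97 (SE 0.13, adjusted p = 2.1e-06). Between SCC6 and SCC25 the difference was 0.13 (SE 0.13, adjusted p = 0.53). Over all genes, 8.52%, 19.3% and 17.5% differed in these pairs of lines, and 26.1% in the joint test of the 3 lines, in which TFAP2C had an adjusted p of 2.5e-07 and TFAP2A of 0.51 (edgeR).

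TFAP2A, the member with the highest mean CPM in each group, was not called in any line. In SCC1 it was at 100, 94.1, 101, 103 and 93.8 CPM with PBS and at 101, 108, 106, 104 and 102 CPM with cetuximab. The groups overlapped, and the log2 change of 0.09 had a standard error of 0.05 (adjusted p = 0.11, edgeR). Scaled by total counts alone, without TMM factors, it was 0.15 and called (adjusted p = 0.023). In SCC6 it was at 51.3, 57.2, 51.1, 48.5 and 45.3 CPM with PBS. With cetuximab it was at 63 (2a), 59.6 (2b), 54.5, 47 and 37.7 CPM, a wider spread with the 2 libraries labelled day 2 above all PBS libraries and day 5 below all of them. The log2 change was 0.03 with a standard error of 0.14 (adjusted p = 0.90, edgeR). In SCC25 it was at 56.8, 61.7, 56.6, 59.5 and 62.3 CPM with PBS and at 58.2, 57.9, 50.2, 58.5 and 53.7 CPM with cetuximab. The log2 change was -0.10 with a standard error of 0.06 (adjusted p = 0.29, edgeR), and the groups overlapped. The lowest values, 50.2 and 53.7 CPM, were cetuximab of days 3 and 5, on a flow cell that held no PBS library of SCC25. Cetuximab of day 4 was on the same flow cell and had the highest cetuximab value, 58.5 CPM.

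No member was called by edgeR in SCC6 (0 of 2 tested, against 30.1% of all genes) or in SCC25 (0 of 3 tested, against 18.3%), and 0 had an unadjusted p under 0.05 or were called by DESeq2. In SCC6 the answer for days 4 and 5 depended on how GC content was treated. The log2 change was -0.07 for TFAP2C and -0.15 for TFAP2A in that period, and neither was called, against 37.8% of all genes. After the dependence on GC content was removed from each library, the changes were -0.83 (SE 0.22, adjusted p = 0.0089, edgeR) and -0.47 (SE 0.14, adjusted p = 0.016). The 2 cetuximab libraries of that period are the deepest of the series and the only ones of their flow cell, so the treatment cannot be told apart from the flow cell there.

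**Figure D2:**
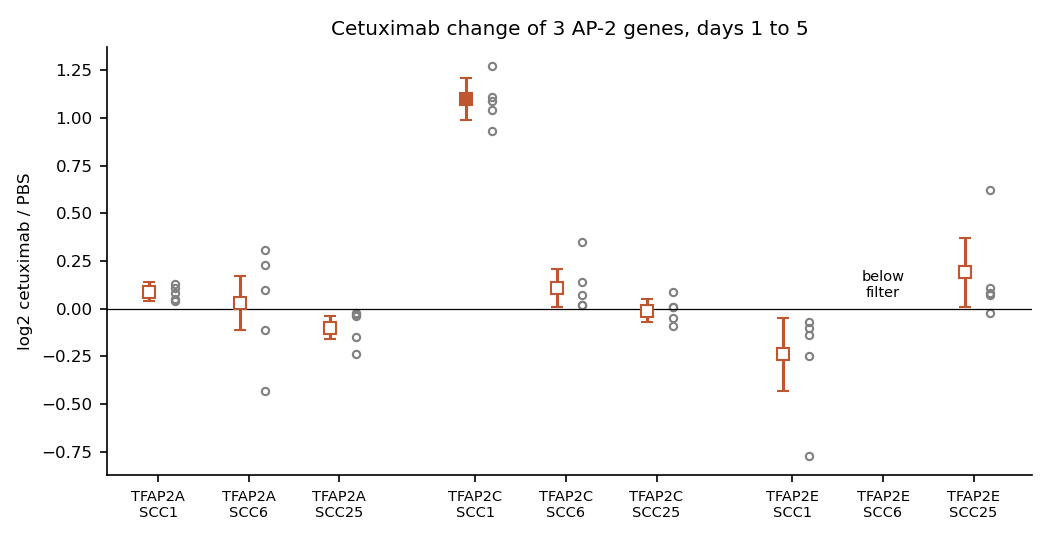
Log2 change of TFAP2A, TFAP2C and TFAP2E with cetuximab over days 1 to 5 in each line. Squares are edgeR estimates with bars of 1 standard error, filled where called, and grey circles are the 5 single cetuximab libraries against the mean of PBS. TFAP2C in SCC1, at 1.10, is the one filled square, and TFAP2E in SCC6 was below the count filter.

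TFAP2E was measured near the lower limit. In SCC1 it was at 1.14, 1.77, 1.11, 1.3 and 1.12 CPM with PBS and at 1.23, 1.17, 0.753, 1.08 and 1.2 CPM with cetuximab, which is 30 to 79 counts per library. The groups overlapped, and the log2 change of -0.24 had a standard error of 0.19 (adjusted p = 0.33, edgeR). In SCC25 it was at 0.65, 0.664, 0.759, 0.55 and 0.541 CPM with PBS and at 0.682, 0.974, 0.662, 0.667 and 0.624 CPM with cetuximab, with day 2 of cetuximab above the rest. The log2 change was 0.19 with a standard error of 0.18 (adjusted p = 0.50, edgeR).

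In SCC6, TFAP2E had 2, 4, 1, 2 and 1 estimated counts with PBS on days 1 to 5. With cetuximab it had 1 (2a), 6 (2b), 5, 20 and 20 counts, and PBS of day 0 had 9. The higher counts were those of days 4 and 5, in the deepest libraries, where the level was 0.267 and 0.287 CPM. PBS of day 0, in a less deep library, was at a similar 0.253 CPM, and it is not part of the ratios that follow. Summed over days 4 and 5 there were 3 counts with PBS and 40 with cetuximab, a ratio of 5.99 after scaling for depth (exact 95% interval 1.91 to 30.3), and over days 1 to 3 there were 7 and 12, a ratio of 1.35 (0.488 to 4.03). These intervals cover counting error only. TFAP2E did not pass the count filter for SCC6 alone. With no filter the change over days 1 to 5 was 1.45 (SE 0.58, adjusted p = 0.13, edgeR), and on days 4 and 5 it was called (adjusted p = 0.027).

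In the fit over all 3 lines TFAP2E passed the filter through its counts in SCC1 and SCC25. Its tests against SCC6 thus rest on counts that did not pass for that line alone. In this fit its change was higher in SCC6 than in SCC1 by 1.74 (SE 0.48, adjusted p = 0.0095, edgeR), and the joint test gave an adjusted p of 0.022. With the flow cell as a covariate the difference was 0.70 (SE 0.61, adjusted p = 0.58). The joint adjusted p of TFAP2E was then 0.66. With the day as a block it was 0.042 with 2a and 0.064 with 2b taken as day 1 (edgeR). It was 0.063 without cetuximab of day 4, 0.065 without cetuximab of day 5 and 0.052 without PBS of day 4 in SCC6. The difference of SCC6 from SCC25 was 1.30 (SE 0.49, adjusted p = 0.063), and without single libraries it ranged from 1.08 to 1.72. It was called without cetuximab 2a or PBS of day 2 in SCC6, or cetuximab of day 2 in SCC25.

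TFAP2B and TFAP2D were at or near 0 in all lines. TFAP2B had 1 count in each of 2 of the 33 libraries, cetuximab of day 4 in SCC1 and PBS of day 5 in SCC25. TFAP2D had 1 count in 1 library, cetuximab of day 2 in SCC25. A count of 0 allows up to 3 counts, which is 0.0372 to 0.105 CPM when divided by a library's total count without TMM factors, so in a library at 0 a level up to this may have gone undetected.

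Between the untreated lines, the members followed different orders. On days 1 to 5 no PBS library of another line was on the flow cell of SCC25 PBS. SCC1 and SCC6 shared a flow cell only through PBS of day 5 in SCC1 and of day 1 in SCC6. All 3 members tested differed in all 3 pairs of lines with PBS on days 1 to 5, where 69.1% (SCC6 and SCC1), 68.4% (SCC25 and SCC1) and 72.1% (SCC6 and SCC25) of all genes differed, so the share of members is to be read against a high background. TFAP2C was highest in SCC6 (37.6 ± 3.72 CPM, SD, n = 5), then SCC25 (27 ± 1.16) and SCC1 (7.37 ± 1.18). SCC6 was above SCC1 by a log2 difference of 2.36 (SE 0.11) and above SCC25 by 0.48 (SE 0.10, adjusted p = 0.00035, edgeR). TFAP2A was highest in SCC1 (98.4 ± 4.19 CPM), then SCC25 (59.4 ± 2.66) and SCC6 (50.7 ± 4.38). SCC25 was below SCC1 by a log2 difference of -0.72 (SE 0.07), and SCC6 was below SCC25 by -0.23 (SE 0.07, adjusted p = 0.0053, edgeR), with ranges that overlapped. TFAP2E was highest in SCC1 (1.29 ± 0.28 CPM), then SCC25 (0.633 ± 0.0901) and SCC6 (0.0659 ± 0.0422). SCC25 was below SCC1 by a log2 difference of -1.02 (SE 0.20) and SCC6 below SCC25 by -3.20 (SE 0.31). TFAP2E passed the filter of this fit through SCC1 and SCC25, since SCC6 had 1 to 4 counts per PBS library. Its calls against SCC6 thus come from a gene kept for the lines where it was higher. TFAP2A and TFAP2E thus had one order of lines and TFAP2C its reverse. In SCC1, the rise with cetuximab left TFAP2C at 14 to 17.8 CPM, below every library of SCC25 and SCC6.

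Divided by transcript length, the family was mostly TFAP2A in SCC1. The main transcripts are 3143 bases for TFAP2A, 2862 for TFAP2C and 2245 for TFAP2E. In SCC1, TFAP2A was at 31.3 ± 1.33 CPM per kilobase with PBS and TFAP2C at 2.57 ± 0.413, a ratio of TFAP2C to TFAP2A of 0.0822. With cetuximab the ratio was 0.165 in SCC1, and it lay between 0.0695 and 0.0977 in the single PBS libraries and between 0.143 and 0.187 in the cetuximab libraries. TFAP2A made up 90.9% ± 0.942 of the per-length sum of the family with PBS and 84.7% ± 1.16 with cetuximab. In SCC6 the ratio was 0.823 with PBS and 0.882 with cetuximab, and in SCC25 it was 0.50 and 0.532. Which gene is higher in SCC6 and SCC25 depends on the length used, because TFAP2A has many annotated exons. With all annotated exons merged (8220 bases for TFAP2A, 3001 for TFAP2C) the PBS ratios were 2.05 in SCC6, 1.25 in SCC25 and 0.205 in SCC1, so TFAP2A stayed above TFAP2C in SCC1 under both lengths.

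**Figure D3:**
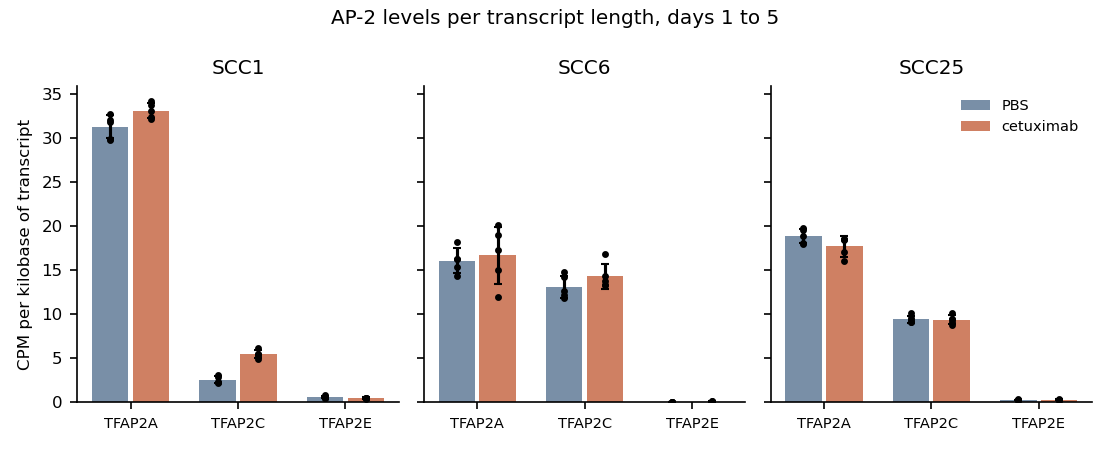
Mean CPM per kilobase of the main transcript for TFAP2A, TFAP2C and TFAP2E with PBS and cetuximab on days 1 to 5. Bars start at 0 and show the mean, lines 1 SD and dots the 5 libraries. TFAP2A dominates in SCC1, at 31.3 with PBS, while TFAP2C is at 13.1 and 9.44 with PBS in SCC6 and SCC25 and at 2.57 in SCC1.

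Without drug the members showed no called trend over days 0 to 5 in any line. TFAP2C in SCC1 had a slope of -0.12 log2 per day (SE 0.05, adjusted p = 0.22, edgeR). It was the only member's slope below the threshold before adjustment, and DESeq2 called 0. Of all genes, 2.49% had a called slope in SCC1, 32.7% in SCC6 and 10.7% in SCC25. Within lines, the levels of TFAP2A and TFAP2C had a Pearson correlation of 0.6 over the 11 libraries of SCC1, and of 0.05 and 0.07 over the 11 of SCC6 and of SCC25. These libraries differ in treatment, day and flow cell, and the part of each in the correlations was not tested.

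The antisense RNA TFAP2A-AS1 lies inside the TFAP2A locus on the opposite strand (chromosome 6, 10409573 to 10416679) and overlaps the start region shown above. Whether the counting used strand is not given in the sources used here, so its reads and those of TFAP2A may not be told apart. It had 0.253 to 1.65 CPM. In SCC1 on days 4 and 5 it was at 0.77 and 0.675 CPM with PBS and at 1.43 and 1.26 CPM with cetuximab, a log2 change of 0.91 (SE 0.28, adjusted p = 0.03, edgeR). In that period 29.9% of all genes were called. On days 1 to 3 the change was -0.03, and the difference between the periods was not called (adjusted p = 0.66, edgeR). With PBS, TFAP2A-AS1 in SCC1 was at 1.65 and 1.27 CPM on days 0 and 1, and its slope of -0.25 log2 per day (SE 0.06) was not called. Over days 1 to 5 its change in SCC1 was 0.34 (SE 0.21, adjusted p = 0.20), and it was not called in SCC6 (0.40) or SCC25 (0.07). Of the nearest genes, PSMB2, a proteasome subunit gene beside TFAP2E, fell by 0.31 on the log2 scale in SCC1 (SE 0.05, adjusted p = 0.00025, edgeR), and GCNT2, 72564 bases from TFAP2A, changed by -0.72 (SE 0.13, adjusted p = 0.00078). In SCC25, PKHD1, on the other side of TFAP2B from TFAP2D and 664765 bases away, rose by 0.76 (SE 0.21, adjusted p = 0.024, edgeR). Other nearest genes tested were not called: NCDN and SLC35B3 in SCC1, and BMP7, GCNT2, NCDN, PSMB2 and SLC35B3 in SCC25. Nor were GCNT2, NCDN, PSMB2 and SLC35B3 in SCC6. The shares of all genes called were 44.8% in SCC1, 30.1% in SCC6 and 18.3% in SCC25.

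Genes whose levels ran most like TFAP2C over the 33 libraries, after the mean of each line was subtracted and among the 9905 genes whose mean log2 CPM was 3 or higher, were KCTD1 (Pearson r 0.93), LINC00511 (0.90) and DNAJC15 (0.89). KCTD1 encodes a BTB-domain protein known to bind AP-2 and repress its activity. Its mean was 17.9 CPM with PBS and 32.2 CPM with cetuximab in SCC1, a log2 change of 0.85 (SE 0.09, adjusted p = 1.8e-05, edgeR). There 22.7% of all genes were called higher. KCTD1 was picked here by its likeness to TFAP2C in these same libraries, so a change like that of TFAP2C is not a separate result. In SCC6 KCTD1 changed by 0.16 (adjusted p = 0.21) and in SCC25 by 0.07 (adjusted p = 0.42). The likeness came mostly from SCC1, where r with KCTD1 was 0.97, against 0.35 in SCC6 and 0.46 in SCC25. These libraries differ in treatment and flow cell, which in SCC1 nearly coincide. After the mean of each treatment within a line was also subtracted, r was 0.66 for KCTD1, 0.62 for LINC00511 and 0.57 for DNAJC15. For TFAP2A, the closest were AKR1B1 (r 0.72), VTI1B (0.68) and PARN (0.66).

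Among 14 listed partners of AP-2 (coactivators, repressors and modifiers), 13 were tested in each line. Of all genes tested, SCC1 had 22.7% called higher and 22.1% lower, SCC6 had 15.6% and 14.6%, and SCC25 had 8.8% and 9.5%. In SCC1, 3 partners rose, 6 fell and 4 were not called, with a median log2 change of -0.21 against 0.02 for all genes. In SCC6, 2 rose and 2 fell, with a median of -0.05 against 0. In SCC25, 0 rose and 3 fell, with a median of -0.08 against 0.01. NPM1, a nucleolar chaperone, was the partner that fell in all 3 lines, by 0.45 in SCC1, 0.74 in SCC6 and 0.38 in SCC25 on the log2 scale. CITED4, a coactivator that links AP-2 to histone acetylases, changed most in SCC1, from 8.16 to 3.53 CPM (log2 -1.20, SE 0.28, adjusted p = 0.0037, edgeR).

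Of 16 listed AP-2 targets, 13 were tested in SCC1, and 8 rose and 4 fell, with a median of 0.52 against 0.02 for all genes. The shares of all genes called in each line were those given for the partners. In SCC6, 5 rose and 2 fell of 14 tested (median 0.10), and in SCC25, 5 rose and 3 fell of 16 tested (median 0.08). ERBB3, a receptor of the EGFR family, rose in SCC1 (0.89, adjusted p = 1.3e-06, edgeR) and in SCC25 (0.49, adjusted p = 0.00053) and fell in SCC6 (-0.44, adjusted p = 0.042). TGFBR3, a TGF-beta co-receptor, rose in SCC1 (1.23) and fell in SCC6 (-1.07) and SCC25 (-0.57). MCAM, a cell adhesion molecule, fell in SCC1 (-0.48, adjusted p = 0.0078, edgeR) and rose in SCC6 (2.60, adjusted p = 0.00062) and SCC25 (0.48, adjusted p = 0.0046). The target that changed most was KRT14, a basal keratin, in SCC1 (234 to 836 CPM, log2 1.84), IGFBP5, which binds insulin-like growth factors, in SCC6 (2.96 to 147 CPM, log2 5.62), and KIT, a receptor tyrosine kinase, in SCC25 (1.13 to 2.64 CPM, log2 1.22). The list holds genes reported with AP-2 in other tissues and was not chosen from binding in these cells.

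**Figure D4:**
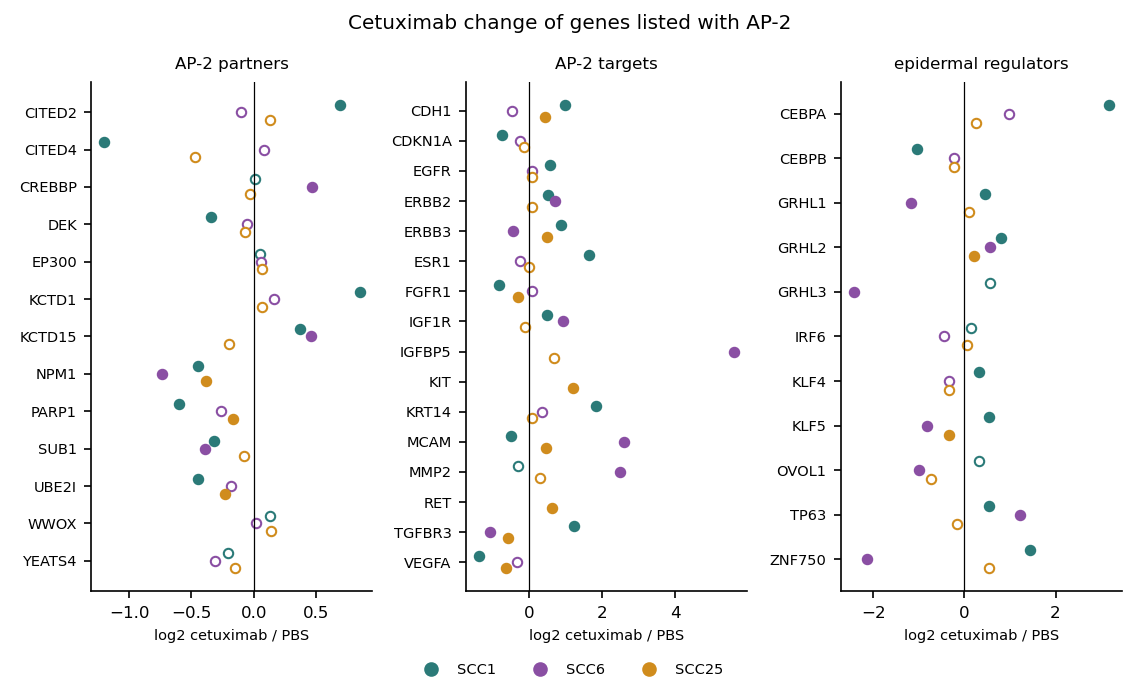
Log2 change with cetuximab on days 1 to 5 of the tested genes in 3 lists kept beside AP-2 (partners, targets, epidermal regulators), one colour per line, filled where called by edgeR. Each panel has its own axis, and the point farthest from 0 is IGFBP5 in SCC6 at 5.62.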

How the data were processed

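RNA-seq libraries were poly(A) enriched and made with a strand-marking kit, per the labels. The authors inferred transcript levels with Salmon and exported estimated counts with tximport, and the deposited values are expected (estimated) counts per gene symbol, not normalised between libraries. The submitters' processing notes name Salmon 0.8.2 and the builds hg19 and GRCh37. The transcript annotation is not given in the sources used here. Estimated counts divide reads among overlapping or similar transcripts, which can move levels of TFAP2A and its antisense RNA.

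The estimated counts, rounded to integers, were fitted with edgeR 4.0.16 under R 4.3.3 (filterByExpr, TMM, quasi-likelihood F test, two-sided, Benjamini-Hochberg over all genes tested, threshold 0.05), beside limma 3.58.1. SE is the log2 change divided by the square root of F. Each line was fitted on 5 cetuximab and 5 PBS libraries of days 1 to 5, and by period. Differences between lines were tested over 30 libraries, lines with PBS over 15 and slopes over 6. Alternatives were DESeq2 1.42.0, its size factors, total count scaling, no filter, each library left out, day as a block, flow cell as a covariate, GC trend removed, and day 0 added or, for slopes, left out. Libraries of a line and day share the day in their labels, which pairs them. Correlations of their deviations over genes were 0.06 to 0.19 in SCC1 and 0.11 to 0.22 in SCC25, and 0.23, -0.06 and 0.08 on days 3 to 5 in SCC6. PBS of day 2 in SCC6 gave 0.28 with 2a and 0.24 with 2b. Unlike days reached 0.12 in SCC1, 0.26 in SCC25 (PBS of day 2, cetuximab of day 1) and 0.5 in SCC6 (PBS of day 1, cetuximab of day 4). Same-day values thus stayed below the highest value of unlike days in SCC6 and SCC25. No library was a repeat of another (lowest chi-square per gene 5.28). Fits were tested on simulated data. Log2 CPM used a prior count of 2.

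Positions, lengths and start regions came from GENCODE on GRCh37 with pysam 0.24.0, and figures from matplotlib 3.10.9 in Python 3.11.15. The start region of TFAP2C is not reported here. TFAP2A-AS2 and TFAP2E-AS1 were not used here. Genes named beside the members followed a rule: antisense RNAs and nearest genes, the 3 genes most like each member tested in all lines, and from each list the genes called in all lines and the called gene with the largest change per line. KCTD1 is in both. Members and lists, written from textbook knowledge, were chosen with earlier results of these data known.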

Additional observations from a re-analysis of the deposited data

Results flagged for a closer look

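The cetuximab change of TFAP2C differed between lines by the test of the difference: SCC25 minus SCC1 was -1.10 and SCC6 minus SCC1 was -0.97 on the log2 scale. The change of TFAP2E also differed, by 1.74 between SCC6 and SCC1, on counts of 1 to 20 per library in SCC6. With the flow cell as a covariate that difference was 0.70 and was not called (adjusted p = 0.58, edgeR). TFAP2E did not pass the count filter for SCC6 alone. Among 16 groups of 5 libraries, a single library stood far from the others in 2, both for TFAP2E. PBS of day 2 in SCC1 was at 1.77 CPM with the next library at 1.3 CPM, and cetuximab of day 2 in SCC25 was at 0.974 CPM with the next at 0.682 CPM. Chance marks about 1 in 20 such groups.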

How the results depend on the processing

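TFAP2C in SCC1 kept its direction and its call under all 8 other settings over days 1 to 5 (log2 0.97 to 1.26) and without any 1 of the 10 libraries (1.04 to 1.17), and its differences of SCC25 and SCC6 from SCC1 were called under all 8 as well (-1.26 to -0.96 and -1.23 to -0.92). All PBS differences between lines kept their calls, although scaling by total counts moved the median of all genes by -0.18 between SCC6 and SCC1 and by -0.11 between SCC6 and SCC25. Counts of members called moved as follows: 2 in SCC1 with total count scaling, 2 in SCC6 on days 4 and 5 with the GC trend removed and 1 with no filter, and 1 for SCC6 minus SCC1 with a flow cell term. Members with any difference between lines numbered 2, and 1 with a flow cell term. With day as replicate block the TFAP2C change in SCC1 was 1.11 (adjusted p = 6.5e-05, edgeR), and the block changed no call except that TFAP2E was no longer called in the joint test between lines with 2b taken as day 1, which left 1 member. Without single libraries that number was 1 to 2, being 1 without SCC6 cetuximab of day 4 or 5 or PBS of day 4, and the members called for SCC6 minus SCC25 were 0 to 1. The other changes of sign were in uncalled values, and their cause was not tested. With the GC trend removed these were -0.02 for TFAP2C between periods in SCC1, 0.14, 0.17 and 0.05 for TFAP2C in SCC25 (days 1 to 5, days 4 and 5, and between periods), -0.06 and -0.12 for TFAP2A and TFAP2C in SCC6, and -0.05 and -0.27 for their differences of SCC6 from SCC25. With the flow cell as a covariate they were -0.02 for TFAP2C between periods and 0.04 for TFAP2E on days 4 and 5 in SCC1, in SCC25 0.08 for TFAP2A on days 4 and 5 and between periods and 0.05 and 0.03 for TFAP2C, and 0.07 for TFAP2A in SCC6 minus SCC1. With total count scaling they were -0.02 and 0.01 for the TFAP2A slopes of SCC1 and SCC6 and, for TFAP2C in SCC25, 0.04 over days 1 to 5 and 0.03 on days 4 and 5. TFAP2C in SCC25 was 0.02 with day 0 added, and on days 1 to 3 -0.01 with DESeq2, its size factors or no filter, and the TFAP2A slope in SCC1 was -0.01 on days 1 to 5 only. Without single libraries, uncalled values ranged as follows: TFAP2A between periods -0.09 to 0.05 and TFAP2C -0.04 to 0.32 in SCC1, TFAP2E on days 4 and 5 -0.19 to 0.04, the TFAP2A slope -0.01 to 0.02; in SCC25 TFAP2C -0.02 to 0.02 over days 1 to 5, -0.02 to 0.03 on days 1 to 3, -0.05 to 0.03 on days 4 and 5 and -0.04 to 0.04 between periods, TFAP2E -0.03 to 0.27 on days 1 to 3 and -0.04 to 0.26 between periods, TFAP2A -0.12 to 0.02 between periods; in SCC6 TFAP2A -0.05 to 0.14 over days 1 to 5 and -0.32 to 0.02 on days 4 and 5, TFAP2C -0.13 to 0.01 on days 4 and 5, slopes -0.07 to 0.02 for TFAP2A and -0.01 to 0.05 for TFAP2C; and -0.10 to 0.07 for TFAP2A in SCC6 minus SCC1. The flow cell as a covariate could not be fitted for SCC6 by period. Depth limits TFAP2E in SCC6 and TFAP2B and TFAP2D throughout.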

Other observations

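Other regulators of epidermal genes were read beside the AP-2 family, from a list of 11. In SCC1, where TFAP2C rose, 7 rose, 1 fell and 3 were not called, with a median log2 change of 0.53 against 0.02 for all genes. In SCC6, 2 rose and 5 fell of 11 tested, with a median of -0.45 against 0, and in SCC25, 1 rose and 1 fell of 10 tested, with a median of -0.05 against 0.01. GRHL2, a grainyhead-like factor of epithelial junction genes, rose in all 3 lines, from 42.7 to 73.9 CPM in SCC1 (log2 0.80), 79.3 to 118 CPM in SCC6 (0.55) and 66.3 to 76.9 CPM in SCC25 (0.21). KLF5, a Krüppel-like factor of basal epithelium, rose in SCC1 (0.53, adjusted p = 0.0037, edgeR) and fell in SCC6 (-0.82, adjusted p = 0.00022) and SCC25 (-0.33, adjusted p = 0.028). CEBPA, a leucine zipper factor of differentiating keratinocytes, changed most in SCC1, from 0.189 to 1.73 CPM (log2 3.18, SE 0.27), and GRHL3 most in SCC6, from 18 to 3.44 CPM (log2 -2.43, SE 0.58).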
